A study of Rattus norvegicus with 6 samples.

Results

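The interleukin 4 and 13 receptor axis was examined in rat bone marrow stromal cells through 7 genes and the 10 array probes that carry their names, out of 35214 genes and 45598 probes. The 7 genes were the interleukin 13 decoy receptor Il13ra2, the signalling receptor chains Il13ra1, Il4r and Il2rg, the transcription factor Stat6, its feedback inhibitor Socs1 and Chi3l1, a secreted chitinase-like protein that binds the decoy receptor. They were put together because Il13ra2 was higher on Ta. The difference of Il13ra2 between the surfaces is therefore given as a description without a test, and the other members, read from the same arrays, add no separate support for it.

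The cells were the adherent stromal cells of tibia marrow (rBMSCs), which can form bone, cartilage and fat cells. They were grown for 7 days either on titanium whose surface had been modified with tantalum (Ta, 3 arrays) or on simple titanium (Ti, 3 arrays). Each array was hybridised with the Cy3-labelled RNA of 1 culture, and the series describes the cultures of a group as independent experiments. Strain, sex and age of the rats are not given in the sources used here, and the adherent fraction of marrow can also hold macrophages and other blood cells.

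Interleukins 4 and 13 are the cytokines of type 2 immunity. Interleukin 4 binds Il4r, which pairs with the common gamma chain Il2rg on blood cells or with Il13ra1 on other cells, and interleukin 13 binds Il13ra1 together with Il4r. Both receptors act through Janus kinases on Stat6, whereas Il13ra2 binds interleukin 13 tightly and has a short intracellular tail without a Janus kinase site. In mouse and human cells Il13ra2 limits interleukin 13 signalling, and it has also been described as a receptor for Chi3l1.

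In the GRCr8 assembly, RefSeq places Il13ra2 on chromosome X at 115814620 to 115886080, Il13ra1 on X at 120213670 to 120294777 and Il2rg on X at 70435340 to 70439052. Il4r lies on chromosome 1 (189545739 to 189570639), Stat6 on 7 (65365505 to 65382825), Socs1 on 10 (5389574 to 5391265) and Chi3l1 on 13 (48193839 to 48201822). Il13ra1 has a listed pseudogene, Il13ra1-ps1, on chromosome 11 (84759854 to 84763542), and the array's own annotation places both Il13ra1 probes on chromosome 11. Signal of the gene and of its pseudogene may therefore not be told apart, and the Il13ra1 values are uncertain.

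The increase that defines the set rests on a pair of Il13ra2 probes, and the difference between the Il13ra1 probes turns on the one that starts at base 1159 of its transcript, so these 3 sequences are shown as the deposited files give them, 5′ to 3′, each 60 bases long. No stretch is set in capitals, since the whole oligo takes part in hybridisation. RefSeq places both named genes on chromosome X, but the array's annotation places the Il13ra1 probe on chromosome 11, so its origin is uncertain.
Il13ra2, probe at base 1154: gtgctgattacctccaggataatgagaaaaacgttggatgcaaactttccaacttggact
Il13ra2, probe at base 1657: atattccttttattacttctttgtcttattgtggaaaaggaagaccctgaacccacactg
Il13ra1, probe at base 1159: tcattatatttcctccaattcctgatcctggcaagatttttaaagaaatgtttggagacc

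Values below are log2 processed signals, that is, background-corrected spot intensities, after each array was scaled to a common 75th percentile. They can be compared between arrays for 1 probe but not between probes. Between 62.7% and 65.9% of spots were well above background, and in the leukocyte and macrophage lists given below Ta replicate 1 lay nearer to the Ti arrays than Ta replicates 2 and 3 did. All arrays were on 1 slide, with the 3 Ta arrays and Ti replicate 1 in row 1 and Ti replicates 2 and 3 in row 2. With slide row as a block, each difference is therefore that of the 3 Ta arrays from Ti replicate 1 alone. In total 19737 genes were tested with limma, of which 816 passed an adjusted p of 0.05 and 5909 had an unadjusted p under 0.05. The count of 816 hung on single arrays. When Ta replicate 2 or 3, or Ti replicate 1 or 3, was left out, 0 genes were called, while 3833, 3928, 4492 and 3840 genes had an unadjusted limma p under 0.05. Leaving out Ta replicate 1 gave 3213 calls, and leaving out Ti replicate 2 gave 1595. The count was also 0 with slide row as a block, with 3854 genes at an unadjusted limma p under 0.05. No call given below is therefore kept in any of these 5 refits that called nothing.

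Il13ra2 was about 10 times as bright on Ta as on Ti. At the probe at base 1657, the brighter of its pair, the signal was 7.50, 9.19 and 9.27 on Ta replicates 1, 2 and 3, against 5.09, 5.56 and 5.21 on Ti replicates 1, 2 and 3. In the deposited units these were 174, 562 and 555 on Ta, against 39.4, 46.9 and 38.4 on Ti. Ta replicate 1 was the lowest of the Ta arrays and still lay 1.94 above the highest Ti array, and the groups did not overlap. The means were 8.65 ± 0.999 on Ta and 5.28 ± 0.25 on Ti (SD, n = 3 each), a difference of 3.37 or 10.3-fold.

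The spread of Il13ra2 was unequal between the surfaces. The Ta arrays spanned 1.77 on the log2 scale and the Ti arrays 0.48, with the Ta span set by replicate 1. Without Ta replicate 1 the difference was 3.95, and without Ta replicate 2 or 3 it was 3.10 and 3.06. Against Ti replicate 1 alone, the one Ti array in the slide row of the Ta arrays, it was 3.57. With normexp background correction in place of the scanner's own, and an offset of 50 added to the signals, it was 2.29. The deposited Ti signals of 39.4, 46.9 and 38.4 lay below that offset, and its part in the smaller difference was not tested.

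The probe at base 1154 gave the same picture at lower brightness. Its signal was 5.58, 7.45 and 7.62 on Ta replicates 1, 2 and 3, against 3.43, 3.70 and 3.18 on Ti replicates 1, 2 and 3. It was well above background on all 3 Ta arrays and on none (0) of the Ti arrays, so the Ti level is only a bound, and the signal was at least 10.9-fold higher on Ta, with measured means of 6.88 ± 1.13 on Ta and 3.44 ± 0.26 on Ti (SD, n = 3 each). For such bounds, here and in the genes below, each array of the dim group contributed either the probe's signal or, if that was larger, the dimmest signal of any probe above background there. For Il13ra2 and Chi3l1 the probe's signal was the larger. The probes of Il13ra2 differed from each other by 1.65 to 2.02 on every array, so their order of arrays was nearly the same (Pearson r = 0.998 over 6 arrays of 2 groups, given as a description).

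**Figure D1:**
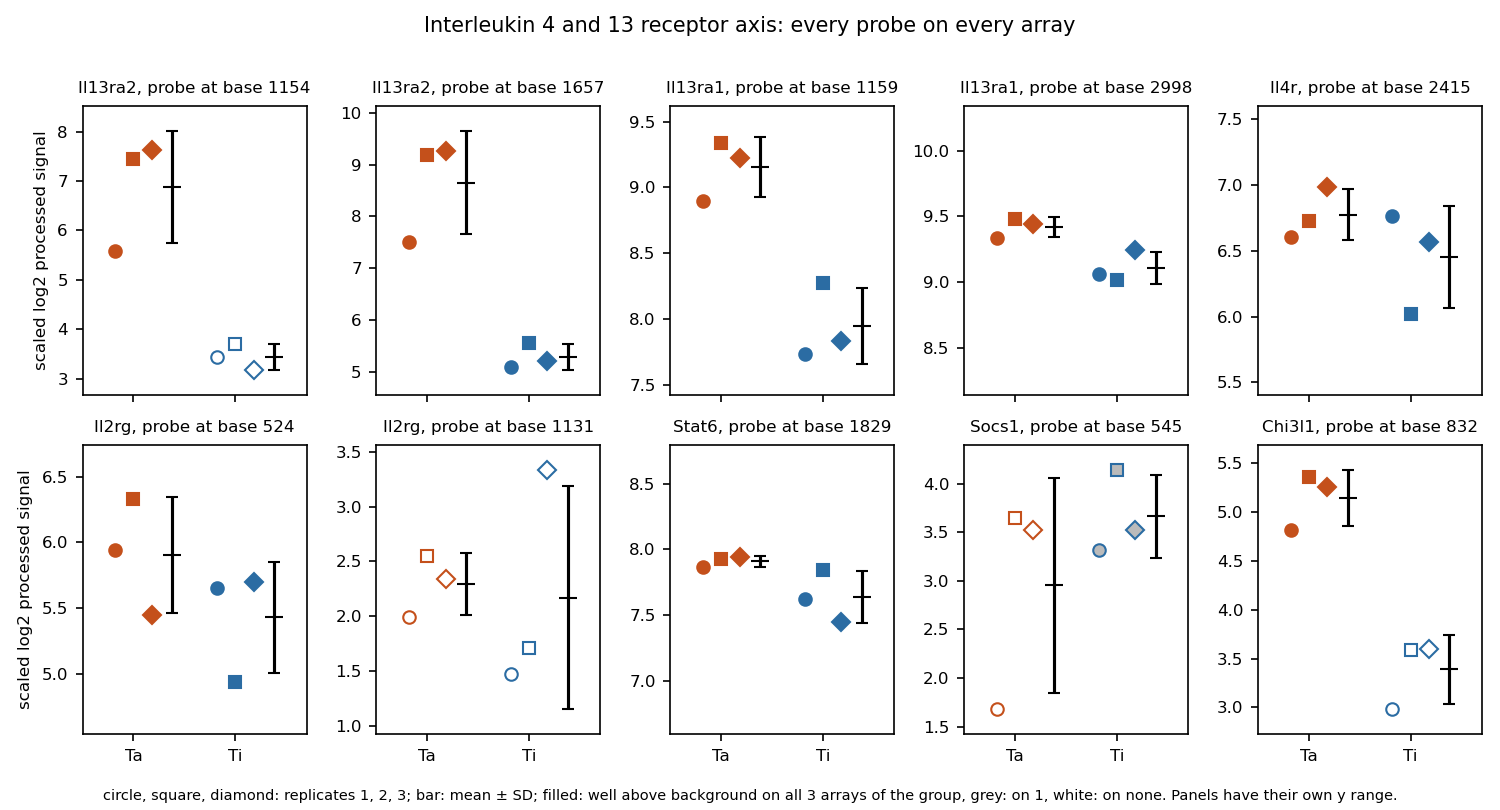
Scaled log2 processed signal of each of the 10 probes on the 3 Ta (orange) and 3 Ti (blue) arrays, with symbols for replicates 1 to 3 and bars for the mean ± SD; each panel has its own y range, and open or grey symbols mark groups in which the probe was well above background on no array or on 1. Both Il13ra2 probes lie higher on every Ta array, with Ta replicate 1 lowest, Chi3l1 lies higher on Ta with no Ti array well above background, and Il4r, Il2rg and Socs1 overlap between the surfaces.

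Of the 5 members other than Il13ra2 that could be tested, 1 passed an adjusted p of 0.05, against 4.13% of all tested genes, and all 5 had a difference above 0 (median 0.32, against 0.03 for all genes). In 3 of the 5 the arrays of the groups did not overlap after scaling, as in 35.8% of all genes. Since the set was chosen from this contrast, nothing is read from these shares. Socs1 was not well above background on enough arrays to be tested.

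The chains of the signalling receptors had differences of 0.31 to 0.48 in the gene test, none of which passed, and of 1.21 at the second Il13ra1 probe. Il13ra1, the chain that interleukin 13 binds first, was represented in the gene test by its brighter probe, at base 2998. That probe gave 9.33, 9.48 and 9.44 on Ta replicates 1, 2 and 3, against 9.06, 9.02 and 9.25 on Ti replicates 1, 2 and 3. The groups did not overlap, by 0.09, and the difference of 0.31 ± 0.10 (SE) did not pass (limma adjusted p = 0.0961). Its unscaled signals were 622, 688 and 626 on Ta, against 620, 515 and 632 on Ti, which overlapped, so the separation appears only after scaling.

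The other Il13ra1 probe, at base 1159, gave another size of difference. It stood at 8.90, 9.34 and 9.22 on Ta replicates 1, 2 and 3, against 7.73, 8.27 and 7.83 on Ti replicates 1, 2 and 3. The lowest Ta array lay 0.62 above the highest Ti array, and the unscaled signals (459, 624 and 538 on Ta, against 247, 308 and 237 on Ti) did not overlap either. The means were 9.15 ± 0.23 on Ta and 7.95 ± 0.29 on Ti (SD, n = 3 each), a difference of 1.21 ± 0.19 (SE) or 2.31-fold, with an adjusted p of 0.0406 in limma when each of 25774 probes was fitted on its own. That fit was chosen after the data were seen. The Il13ra1 probes thus gave the same sign and sizes of 0.31 and 1.21, and their gap ranged from 0.14 to 1.42 over the arrays.

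Il4r, the chain shared by the receptors of both cytokines, had 6.61, 6.73 and 6.99 on Ta replicates 1, 2 and 3, against 6.77, 6.02 and 6.57 on Ti replicates 1, 2 and 3. The groups overlapped, with Ti replicate 1 above 2 of the Ta arrays and Ti replicate 2 lowest of all. The difference of 0.32 ± 0.21 (SE) did not pass (limma adjusted p = 0.353), and it was 0.01 against Ti replicate 1 alone and 0.11 without Ti replicate 2.

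Il2rg, the gamma chain shared by the receptors of interleukin 4 and several related cytokines, is a gene of blood cells. Its probe at base 524 gave 5.94, 6.33 and 5.45 on Ta replicates 1, 2 and 3, against 5.65, 4.94 and 5.70 on Ti replicates 1, 2 and 3. The groups overlapped, since Ta replicate 3 lay below 2 of the Ti arrays, and the difference of 0.48 ± 0.29 (SE) did not pass (limma adjusted p = 0.321). It was 0.23 without Ti replicate 2 and 0.27 without Ta replicate 2. The array names a second probe, at base 1131, for Il2rg, but its transcript matched the neighbouring gene Cxhxorf65 in RefSeq. It did not exceed background clearly on any of the 6 arrays and is not read as Il2rg.

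Stat6, the transcription factor that both receptors activate, had the smallest difference of the tested members in the gene test. It stood at 7.86, 7.93 and 7.94 on Ta replicates 1, 2 and 3, against 7.62, 7.85 and 7.45 on Ti replicates 1, 2 and 3. The lowest Ta array exceeded the highest Ti array by 0.02. Its unscaled signals were 224, 234 and 221 on Ta, against 229, 229 and 182 on Ti, which overlapped, so this separation appears only after scaling. The difference of 0.27 ± 0.12 (SE) did not pass (limma adjusted p = 0.181) and was 0.18 without Ti replicate 3. The transcript level says nothing about phosphorylation, through which Stat6 is activated.

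Socs1, which inhibits Janus kinases and is induced by cytokine signalling, was dim. Its signal was 1.68, 3.65 and 3.53 on Ta replicates 1, 2 and 3, against 3.32, 4.14 and 3.53 on Ti replicates 1, 2 and 3. Only Ti replicate 2 was well above background, so no fold is given, and the groups overlapped.

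Chi3l1 encodes a secreted glycoprotein of macrophages, chondrocytes and other stromal cells. Its signal was 4.82, 5.36 and 5.25 on Ta replicates 1, 2 and 3, against 2.98, 3.59 and 3.60 on Ti replicates 1, 2 and 3. Every Ta array lay at least 1.22 above every Ti array. The gene was well above background on all 3 Ta arrays and on none (0) of the Ti arrays, so it was at least 3.37-fold higher on Ta, with measured means of 5.15 ± 0.29 on Ta and 3.39 ± 0.35 on Ti (SD, n = 3 each) and a limma adjusted p of 0.0396. It passed the filter only through the Ta arrays, where it was brighter, so it had to differ once tested and the p is no support for the difference. The adjusted p was 0.161, 0.125, 0.123 and 0.15 without Ta replicate 2, Ta replicate 3, Ti replicate 1 and Ti replicate 3, 0.157 with slide row as a block and 0.0527 with the replicate number as a block. With normexp and its offset of 50 the difference was 0.54 (limma adjusted p = 0.0237). The deposited signals, 27.2, 39.6 and 34.3 on Ta against 9.18, 12 and 12.6 on Ti, all lay below that offset. The part of the offset in the smaller difference was not tested.

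The other genes of the pathway were taken from 5 lists with 67 genes besides the members, 42 of them tested. Of the 42, 1 was higher on Ta, 1 was lower and 40 did not pass, with a median difference of -0.03. That is 4.76% called, against 4.13% of all genes (2.68% higher and 1.46% lower), so the share was near the background. The 2 were Il7r and Tslp.

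Among the ligands and the signalling proteins next to the receptors, none (0) of 14 tested genes passed, and the median was -0.02. At an unadjusted p under 0.05 in limma 3 of the 14 passed, against 5909 of all 19737 tested genes. Il4 was well above background on 0 of 6 arrays. Il13, named after its values were seen, was well above background on all 3 Ta arrays and on 1 of 3 Ti arrays, with 4.20, 3.91 and 3.92 on Ta replicates 1, 2 and 3, against 2.66, 3.82 and 4.11 on Ti replicates 1, 2 and 3. These overlapped and differed by 0.48 ± 0.37 (SE, limma adjusted p = 0.425). The difference rested on Ti replicate 1, being 0.05 without it and 0.77 without Ti replicate 3. With normexp and its offset of 50 the difference was 0.17. The largest differences of the list were in Ptpn6, a phosphatase of blood cells that damps cytokine receptors (-0.86 ± 0.27, adjusted p = 0.0993), and in Socs3, another inhibitor of Janus kinases (0.62 ± 0.25, adjusted p = 0.165). The Janus kinases Jak1, Jak2, Jak3 and Tyk2 differed by 0.00, 0.21, -0.04 and -0.25.

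The list of receptors and ligands that share the gamma chain, together with Tslp and its receptor, had 13 genes, of which 5 were tested, 1 rose and 1 fell. Il7r, the interleukin 7 receptor chain, stood at 12.54, 13.12 and 12.72 on Ta replicates 1, 2 and 3, against 11.62, 11.54 and 11.74 on Ti replicates 1, 2 and 3. The groups did not overlap and the difference was 1.16 ± 0.16 (SE, limma adjusted p = 0.0396), with 0.93 at a second Il7r probe. Il2, Il2ra, Il9, Il9r, Il15ra and Il21 did not rise clearly above background on any array.

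Tslp, an epithelial and stromal cytokine that acts upstream of type 2 responses and uses Il7r as part of its receptor, was lower on Ta. It stood at 6.85, 6.56 and 6.61 on Ta replicates 1, 2 and 3, against 7.87, 7.24 and 7.84 on Ti replicates 1, 2 and 3. The difference was -0.98 ± 0.19 (SE, limma adjusted p = 0.0494). With the replicate number as a block the adjusted p was 0.0776 for Il7r and 0.0771 for Tslp. Tslp was the only one of 5 tested genes of the upstream alarmin list to pass. In that list Il33 differed by 0.06 ± 0.13 and its receptor Il1rl1, named after its value was seen, by -0.66 ± 0.17 (limma adjusted p = 0.767 and 0.0726). The other tested probes of Il1rl1 differed by 0.02 and 0.17, and the mean of its probes by -0.15 (adjusted p = 0.482), so the lower value belongs to its brightest probe.

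Of 25 genes known to respond to interleukin 4 or 13 through Stat6, 19 were tested. At an unadjusted p under 0.05 in limma 10 of the 19 passed, against 5909 of all 19737 tested genes. None (0) of the 19 passed the adjusted threshold, 9 lay above 0 and the median was -0.02. The largest differences were in Serpinb2, a protease inhibitor that interleukin 13 induces in human airway epithelium (2.20 ± 0.69, adjusted p = 0.0992), and in Egr2, a transcription factor of alternatively activated macrophages (-1.89 ± 0.54, adjusted p = 0.0867, and -0.89 at a second probe). Serpinb2 had 5.49 on Ta replicate 1 and 7.89 and 7.94 on Ta replicates 2 and 3, against 4.94, 4.40 and 5.38 on Ti replicates 1, 2 and 3. The macrophage genes Arg1 and Mrc1, named after their values were seen, differed by 0.47 ± 0.15 and -1.33 ± 0.42 (adjusted p = 0.0988 and 0.101), in opposite directions. Retnla, Cdh1, Fcer2, Muc5ac and Clca1 were too dim on all 6 arrays to be tested.

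In the chitinase family, 1 of 3 tested genes passed, Chi3l1, which was tested only because of its Ta arrays. With probes required to be well above background on all arrays, 0 of 2 passed (0 at an unadjusted limma p under 0.05). Chid1 differed by 0.25 ± 0.12 and Ctbs, the lysosomal chitobiase, by -0.20 ± 0.10 (limma adjusted p = 0.234 and 0.246). Chia and Chit1, the enzymatically active chitinases, and Chi3l3 were likewise too dim on all 6.

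**Figure D2:**
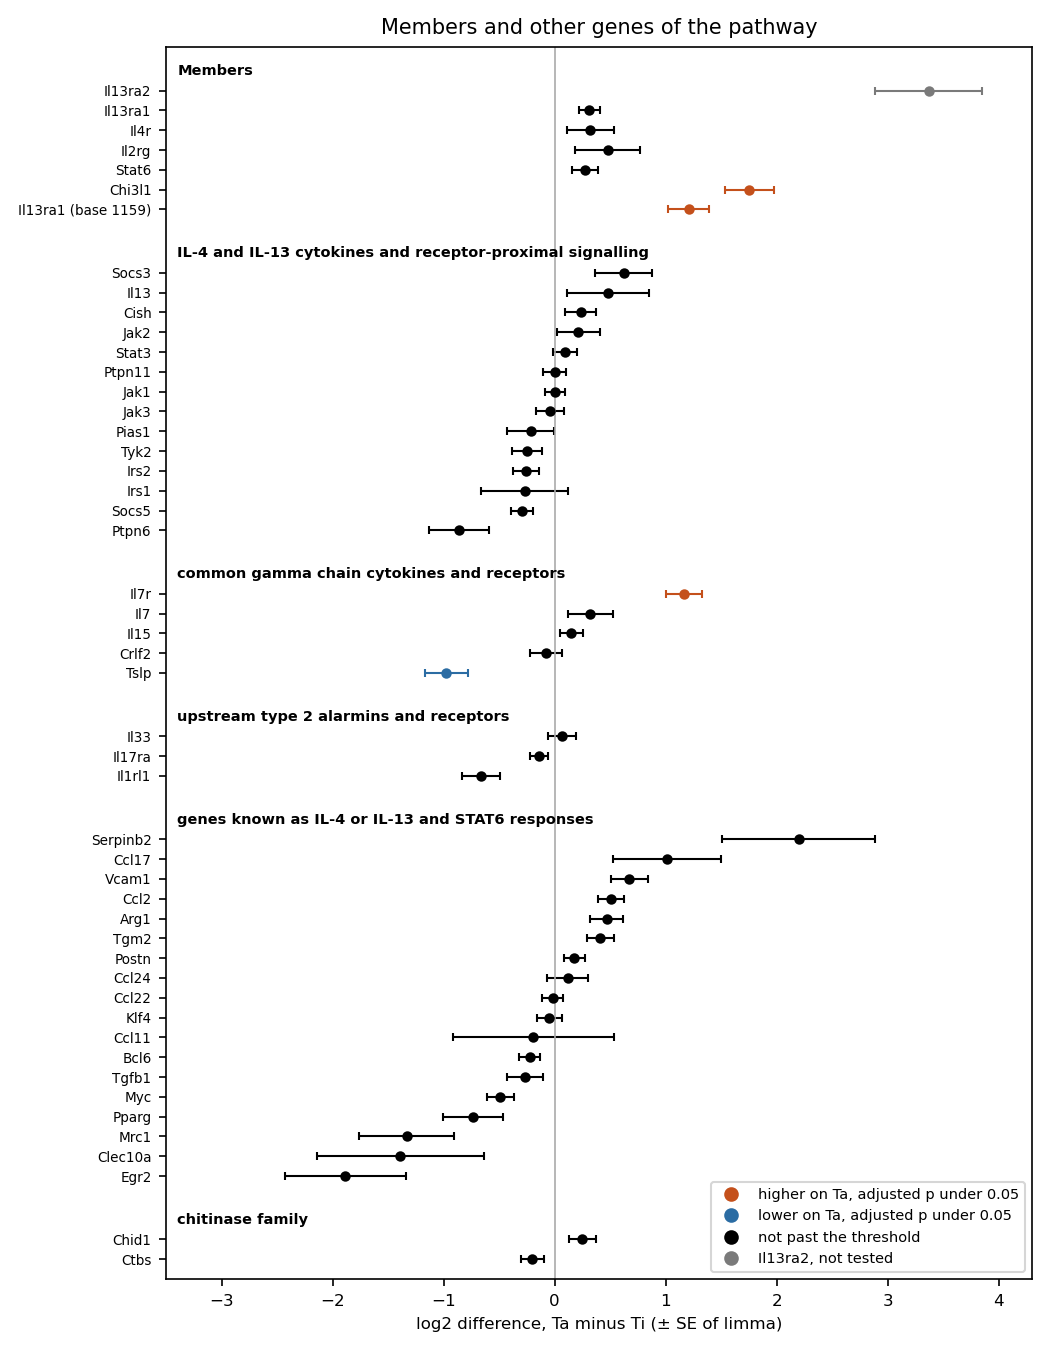
Log2 difference, Ta minus Ti, with the SE of limma for the tested members (Il13ra1 by both probes) and the tested genes of the 5 pathway lists; a gene in several lists is drawn once, and colours mark an adjusted p under 0.05. Il13ra2 at 3.37 was not tested, Chi3l1 at 1.75, measured against Ti arrays not above background, and the Il13ra1 probe at base 1159 (1.21, from the fit of single probes) lie to the right, Il7r is higher at 1.16, Tslp is lower at -0.98, and the other genes are not past the threshold.

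The genes whose profile over the 6 arrays was most like that of Il13ra2 were found from the root mean square distance between log2 profiles, each centred on its own mean. They were Csf3, the granulocyte growth factor (distance 0.22, Pearson r = 0.993), S100a8, a calcium-binding protein of neutrophils and activated macrophages (0.22, r = 0.998), Ankrd55 (0.23, r = 0.996), Scin, an actin-severing protein (0.29, r = 0.993), and Nt5c1b, a cytosolic nucleotidase (0.30, r = 0.991). All 5 had Ta replicate 1 as the lowest Ta array, as Il13ra2 did, which follows from choosing them by likeness of profile. Csf3, for instance, stood at 10.01, 12.41 and 12.16 on Ta replicates 1, 2 and 3, against 7.99, 8.38 and 8.26 on Ti replicates 1, 2 and 3. Ankrd55 and Nt5c1b were well above background on 0 of the 3 Ti arrays. The points share 2 groups of 3 arrays, and 960 of the 19737 tested genes had an r of at least 0.95 with Il13ra2. A high r here is therefore not particular to these 5 genes.

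**Figure D3:**
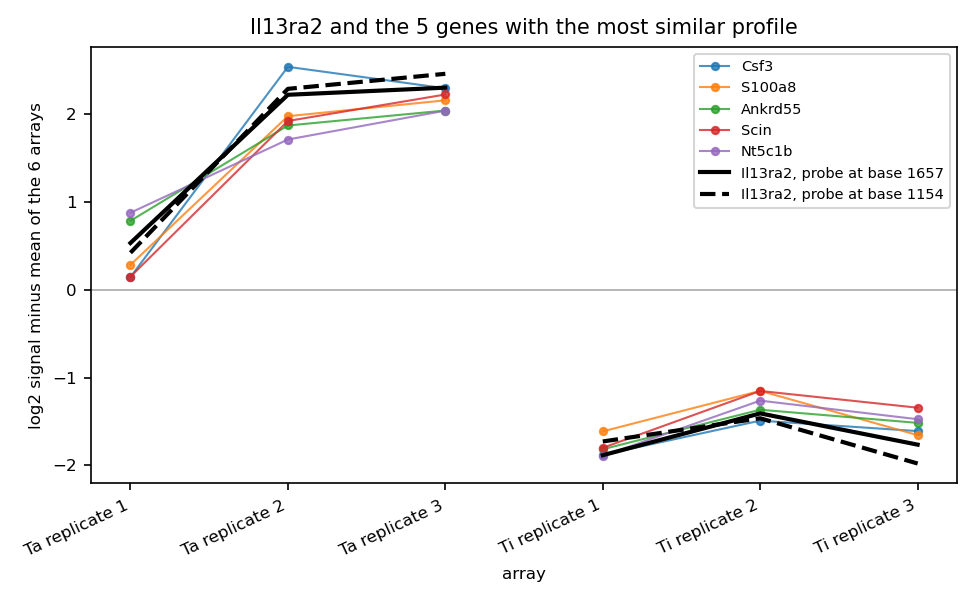
Log2 signal minus the mean of the 6 arrays, for both Il13ra2 probes (black) and the 5 genes closest to the probe at base 1657 (colours), on each array; lines join arrays of 1 group only to guide the eye. In every gene Ta replicate 1 lies between Ta replicates 2 and 3 and the Ti arrays, which follows from the choice by profile.

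Markers of the cell types a marrow culture can hold were read beside these values. Fewer cells of a type and less RNA per cell cannot be told apart in such bulk RNA. Of all tested genes, 2.68% were called higher on Ta and 1.46% lower. Of 11 tested stromal markers 2 rose (Cxcl12 by 1.06) and 0 fell (Col3a1 differed by -0.68, adjusted p = 0.0664), with summed signals of 258700 to 284600 on Ta and 261400 to 280700 on Ti, and Lepr was not well above background. None (0) of 7 leukocyte and 0 of 12 macrophage markers passed, with medians of -0.53 and -0.87. At an unadjusted p under 0.05 in limma 3 and 8 of them did, against 5909 of all 19737 tested genes. At that threshold 4 stromal, 3 neutrophil, 5 mast cell and basophil and 3 T and NK cell markers passed. The leukocyte and macrophage sums were 28020 to 52800 and 41400 to 63020 on Ta, against 47780 to 61870 and 60250 to 67690 on Ti. Their largest differences were in Coro1a (-1.18), Ptprc (-1.09), C1qc (-3.08) and C1qb (-2.83). Above 0 lay 1 of the 7 leukocyte and 3 of the 12 macrophage markers. Among the latter, Fcgr1a (0.41, limma adjusted p = 0.0663) and Cd14 (0.34, limma adjusted p = 0.155) were higher on every Ta array than on any Ti array. Of 4 tested neutrophil markers, S100a8 (2.95) and Camp (1.68) rose, Mpo differed by 1.66 (adjusted p = 0.0518) and Csf3r, the receptor of Csf3, by -0.88 (adjusted p = 0.232), with sums of 304 to 629 on Ta and 121.1 to 180.5 on Ti, while S100a9, Elane, Ltf and Ngp were not well above background. Of 6 mast cell and basophil markers 4 fell, among them Kit (-2.56) and Cma1, while Hdc differed by 0.73, the other way (adjusted p = 0.0564), and Fcer1a by -0.25 (adjusted p = 0.686), with sums of 800.1 to 888.6 on Ta and 1301 to 2144 on Ti, and Ms4a2 was not well above background. Cma1 was above background on 0 Ta arrays and was at least 6.18-fold lower on Ta, with measured means of 1.63 ± 0.52 on Ta and 5.35 ± 0.61 on Ti (SD, n = 3 each). Of 5 T and NK cell markers Cd2 rose, Cd8a differed by -2.45 (adjusted p = 0.0729), sums were 1040 to 2995 on Ta and 2702 to 3227 on Ti, and Cd3e, Cd3g and Prf1 were not well above background. With 0 Ti arrays above background, Cd2 was at least 3.48-fold higher on Ta, with measured means of 5.09 ± 0.23 on Ta and 3.25 ± 0.55 on Ti (SD, n = 3 each). Cd2 and Cma1 each passed the filter through 1 group only, and with normexp (offset 50) differed by 0.43 and -0.53. Of 1 eosinophil (Prg2, -0.09), 1 B cell (Pax5, 0.06) and 6 endothelial markers (Tie1, -0.99, and Pecam1, -0.96, the largest) 0 passed (0, 0 and 1 at an unadjusted p under 0.05 in limma), with sums of 21.9 to 29.4, 235.8 to 254.3 and 1724 to 2043 on Ta, against 23.9 to 31.8, 198.4 to 279.7 and 1723 to 2020 on Ti.

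Il2rg and Ptpn6, as genes of blood cells, stand beside leukocyte lists whose medians were below 0, and Il2rg differed by 0.48. S100a8 and Camp of the neutrophil list were higher on Ta, as Il13ra2 and Chi3l1 were, but Csf3r was not. The 4 mast cell and basophil markers that fell went the opposite way, and Hdc did not. The part of any of these cell types in the members' values was not tested.

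**Figure D4:**
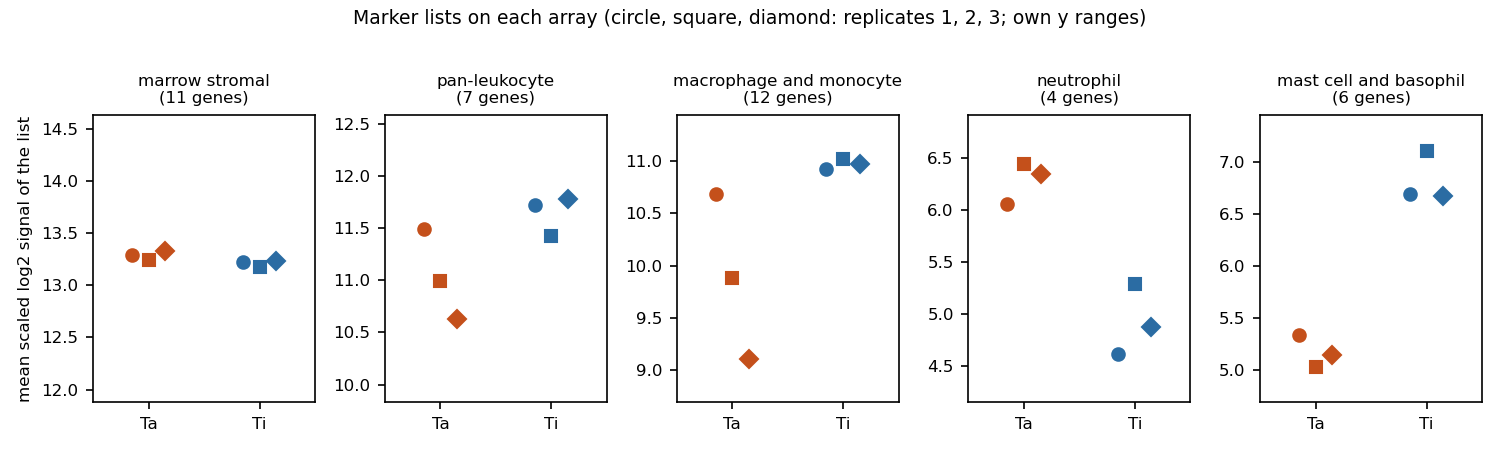
Mean scaled log2 signal of the tested genes of 5 marker lists on each of the 3 Ta (orange) and 3 Ti (blue) arrays, with symbols for replicates 1 to 3 and an own y range per panel. The stromal list is level between the surfaces. The mean of the macrophage list is lower on every Ta array than on any Ti array, with Ta replicate 1 nearest to the Ti arrays. That of the leukocyte list is lower on Ta replicates 2 and 3 than on any Ti array, but not on Ta replicate 1. The mean of the neutrophil list is higher on every Ta array and that of the mast cell list lower. Single genes go against their lists: Fcgr1a and Cd14 (macrophage), Csf3r (neutrophil) and Hdc (mast cell).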

How the data were processed

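Total RNA of 6 cultures was measured on one-colour Agilent arrays. The authors deposited linear spot intensities from the scanner software. Background subtraction and spatial detrending had been done on each array, per the file headers, with no scaling between arrays, and the submitters' processing notes name version 12.0 and limma. The authors' value table equals the processed signal in 100.0% of values.

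The log2 processed signal was lowered by each array's 75th percentile over 58717 non-control spots, and the mean percentile was added back. Flagged spots (0.58% to 0.84%) were left out and spots of 1 probe averaged. Probes well above background on at least 3 of 6 arrays and with a value on every array (25774) were kept, and the brightest stood for its gene (19737 genes). Names came through RefSeq's GRCr8 table for 30912 probes. Groups were compared with limma 3.58.1 in R 4.3.3 (two-sided, Benjamini-Hochberg over all genes, threshold 0.05), tested on simulated data. Differences are Ta minus Ti. SE is limma's moderated standard error. The number of arrays limits the precision.

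The members and lists were chosen with earlier results of these data known. Named genes are the members, up to 4 called genes per pathway list (the 2 largest where none was called), the 5 profiles nearest to Il13ra2 and the 2 largest differences per marker list. The Janus kinases, Il13, Il33, Il1rl1, Arg1, Mrc1, Chid1, Ctbs, Fcgr1a, Cd14, Mpo, Csf3r, Hdc and Fcer1a fall outside this rule and were named after their values were seen. Alternatives were other scalings, normexp (offset 50), other filters, slide row, replicate block, probe mean, variance settings, array weights and leaving out arrays. Around their group means, same-numbered arrays correlated at 0.06, 0.13 and -0.18. With 3 arrays per group this cannot exclude pairing.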

Additional observations from a re-analysis of the deposited data

How the results depend on the processing

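Il13ra2 kept its direction under every alternative run. Its difference fell to 2.29 with normexp background correction and its offset of 50, and was 3.06 to 3.95 without single arrays. Chi3l1 kept its direction with a difference of 1.75 but was no longer called with no filter on dim probes (1.75, adjusted p = 0.111), with the replicate block (1.75, adjusted p = 0.0527) or with slide row as a block (2.16, adjusted p = 0.157), and had 1.55 to 1.92 without single arrays (limma adjusted p from 0.011 to 0.161). It gave no value when probes had to be well above background on all arrays. Il13ra1 passed with the mean of its probes (0.76, adjusted p = 0.0415), with array weights (0.28, 0.0128) and at its other probe (1.21, 0.0406), the last chosen after the data were seen, and its adjusted p was 0.0773 to 0.277 without single arrays. With array weights Il2rg (0.62, adjusted p = 0.0447) and Stat6 (0.41, 0.0052) also passed, as did 10205 of 19737 genes. Il4r passed in none of the alternatives. Socs1, which was not tested, differed by -0.71 as reported and by 0.06 with normexp (offset 50).

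The 816 genes called became 2586 with normexp, 2095 with a robust, trended prior variance, 10205 under array weights, 8 with the replicate block, 0 with no filter (5856 unadjusted in limma) and 0 with slide row as a block (3854 unadjusted), and 0 to 3213 without single arrays. The 2 pathway genes called, in the same order, became 8, 6, 25, 0, 0 and 0 (15, 17 and 8 unadjusted in limma for the last 3), and 0 to 11 without single arrays. Row 2 held no Ta array, so in the slide row fit only Ti replicate 1 stood against the 3 Ta arrays. The cause of the changes in these counts was not tested. With no filter the number of genes adjusted over was also larger, and its part in the loss of calls was not tested. Quantile and median scaling, the stricter filter, the mean of probes and single probes gave counts of genes within 1.5 times (783 to 1185). Same-numbered arrays gave no clear sign of pairing, but 3 arrays per group cannot exclude it. The calls lost under the replicate block therefore remain a limit on those calls. Refits on the deposited value table, identical to the scanner's signal, and with slide or scan as a block, of which there was 1, were not run. Signal over background limits the dimmer Il13ra2 probe, Chi3l1 and Socs1.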
